A study of Mus musculus with 24 samples.

Results

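Retinal ganglion cells are the output neurons of the retina, and their axons form the optic nerve. The 10 genes described here were Rbpms, Pou4f1, Pou4f2, Sncg, Nefl, Nefm, Nefh, Thy1, Isl1 and P2rx2, found by gene symbol among the 36595 genes of the retina table. Of these, 9 were taken as ganglion cell markers, and P2rx2 was chosen by its fall in hyperoxic knockout retinas. All 10 passed the filter on low counts, with 19173 genes tested in all.

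RNA was sequenced from retinas of 12 mouse pups in 4 groups of 3, and the series also holds 12 lungs. WT-RA were wild-type littermates kept in room air, and WT-O2 were wild-type littermates exposed to hyperoxia. KO-RA and KO-O2 were the same exposures in GSDMD-KO pups, which carry a 38 bp germline deletion in exon 5 of the gasdermin D gene in every cell. All groups were of the C57/B6 background, and knockout and wild-type pups came from heterozygote crosses. In the hyperoxia groups pups breathed 75% oxygen from postnatal day 7 to 12 and then returned to room air, and retinas were collected at postnatal day 18. This is the usual mouse model of oxygen-induced retinopathy. Each library is labelled as a separate animal. The labels and the methods do not give the sex of the pups.

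Ganglion cells arise first among retinal neurons. Pou4f1 and Pou4f2 (Brn3a and Brn3b) are POU-homeodomain transcription factors of differentiated ganglion cells, and Isl1 is a LIM-homeodomain factor that acts with Pou4f2 during their differentiation. Isl1 is also made in ON bipolar cells and in starburst amacrine cells, so in whole retina it is not a marker of ganglion cells alone. Rbpms is an RNA-binding protein used to count ganglion cells, and Sncg is gamma-synuclein. Nefl, Nefm and Nefh are the light, medium and heavy neurofilament subunits that fill large axons. Thy1 is a surface glycoprotein. P2rx2 is an ATP-gated cation channel.

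Only some of these genes differed between hyperoxia and room air. All 3 neurofilament genes were called lower with hyperoxia in the knockout, and Nefl and Nefh, but not Nefm, in wild type, where the Nefl call was made in 7 of 22 alternative fits. Thy1 was called lower in wild type, in 11 of 22. The 2 POU factors, Rbpms and Sncg passed the test in no comparison. Isl1 was higher in KO-O2 than in both KO-RA and WT-O2. P2rx2 had the widest difference between room air and hyperoxia of the 10 genes, and since it was chosen for that fall it is described without a test. In whole retina, fewer cells of a type and less RNA per cell cannot be told apart.

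The promoters of the 3 transcription factors are shown because Isl1 acts with Pou4f2 in ganglion cell differentiation, and Isl1 passed the test with hyperoxia in the knockout while Pou4f1 and Pou4f2 did not. A promoter entry was matched for 4 of the 10 genes (Isl1, Pou4f1, Pou4f2 and Sncg) in RefSeq on GRCm38.p6, and the 250 bases before each start site are printed 5′ to 3′ on the minus strand for Isl1 (chr13:116309689-116309938), Pou4f1 (chr14:104468000-104468249) and Pou4f2 (chr8:78436648-78436897). Capitals mark a match on either strand to the TATA box (TATAAA), a homeodomain core (TAATTA) or the core of the hypoxia response element (ACGTG).
Isl1: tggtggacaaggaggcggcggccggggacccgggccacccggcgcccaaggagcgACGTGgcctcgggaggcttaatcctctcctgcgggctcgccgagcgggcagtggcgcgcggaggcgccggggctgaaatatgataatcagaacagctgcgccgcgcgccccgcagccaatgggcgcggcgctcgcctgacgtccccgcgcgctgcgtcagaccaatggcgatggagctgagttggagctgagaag
Pou4f1: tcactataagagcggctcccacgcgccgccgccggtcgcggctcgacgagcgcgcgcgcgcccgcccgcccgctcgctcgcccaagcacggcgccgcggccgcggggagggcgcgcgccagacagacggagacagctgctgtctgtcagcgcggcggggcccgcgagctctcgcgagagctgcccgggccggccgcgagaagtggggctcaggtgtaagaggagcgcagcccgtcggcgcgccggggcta
Pou4f2: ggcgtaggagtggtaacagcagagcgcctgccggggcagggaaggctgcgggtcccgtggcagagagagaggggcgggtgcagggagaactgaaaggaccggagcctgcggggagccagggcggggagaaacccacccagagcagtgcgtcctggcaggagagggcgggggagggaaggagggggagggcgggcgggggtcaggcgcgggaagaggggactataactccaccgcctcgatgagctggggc
The Isl1 window held 1 match to ACGTG, and the other two windows held 0. Of 32851 promoter windows of this length, 16.6% held ACGTG. The TATA box and the homeodomain core were in none of the 3 windows, against 12.4% and 4.84% of all windows. The E-box CANNTG, which can overlap the other motifs and is not in capitals, matched 1 time in Isl1, 2 times in Pou4f1 and 0 times in Pou4f2, and 66.2% of all windows held it. These matches describe the letters of the windows and say nothing of binding.

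By GENCODE M21 on GRCm38, Pou4f1 lies at chr14:104461676-104467999, Pou4f2 at chr8:78433010-78436645, Isl1 at chr13:116298281-116309689, Rbpms at chr8:33782643-33929863 and Sncg at chr14:34370274-34374789, all on the minus strand. Nefh lies at chr11:4938754-4948064 and P2rx2 at chr5:110339812-110343212 on the minus strand, and Thy1 at chr9:44043384-44048579 on the plus strand. Nefl (chr14:68083863-68089095, plus strand) and Nefm (chr14:68082590-68124846, minus strand) overlap, and their annotated exons share 1108 bases. Whether the counting used strand is not given in the sources used here, so reads of Nefl and Nefm in the shared bases may not be told apart. Nefh shares no annotated exon with another gene.

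Levels are given as CPM (a gene's share of its library's counts, scaled by TMM), and changes as log2 fold changes from 1 edgeR model of the 12 retinas, tested by quasi-likelihood and adjusted by Benjamini-Hochberg over all 19173 genes. The threshold was an adjusted p of 0.1, and a stricter call also asked for p under 0.05 and a fold of at least 2. The library totals ran from 24863257 to 29093035 counts, so a gene at 5 CPM rests on more than 100 counts per library.

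Some libraries stood apart. The 12 lens genes held 2.18% of the counts in WT-RA replicate 2, 6.49% in WT-RA replicate 3 and 3.31% in KO-RA replicate 3, and at most 0.0337% in the other 9 retinas. The 19 genes named Cry followed by a, b or g, which overlap that list, held 4.7%, 12.6% and 7.99% in the same 3 libraries. Elsewhere they held at most 0.0724%, so the 12 genes understate the lens share. All 3 were room-air retinas, and the part of lens RNA in the differences between room air and hyperoxia was not tested. Values without these libraries are given for the members and for calls of the further gene lists that were lost, and the cell type lists were not refitted without them. WT-RA replicate 1 is then the only WT-RA retina, so wild-type changes with hyperoxia rest on that retina as control. A call lost in that fit cannot tell lens RNA from fewer retinas. The 8 retinal pigment epithelium genes summed to 2700 CPM in KO-RA replicate 3 and to 99.5 to 637 CPM in the other retinas. Gsdmd carries the 38 bp deletion in the knockouts and is not removed as a whole. It ranged from 0.392 to 5.95 CPM of the library total in wild-type libraries and from 0.582 to 3.07 in knockout libraries. The genotypes therefore overlapped. The library labelled WT-RA replicate 2 had the lowest level of all 12, and the library labelled KO-O2 replicate 3 had the highest among the knockouts, while the other 5 knockout libraries, at 0.582 to 1.51, were below the other 5 wild-type libraries, at 2.33 to 5.95. The genotypes are used as labelled, and the members were also fitted without both libraries.

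**Figure D1:**
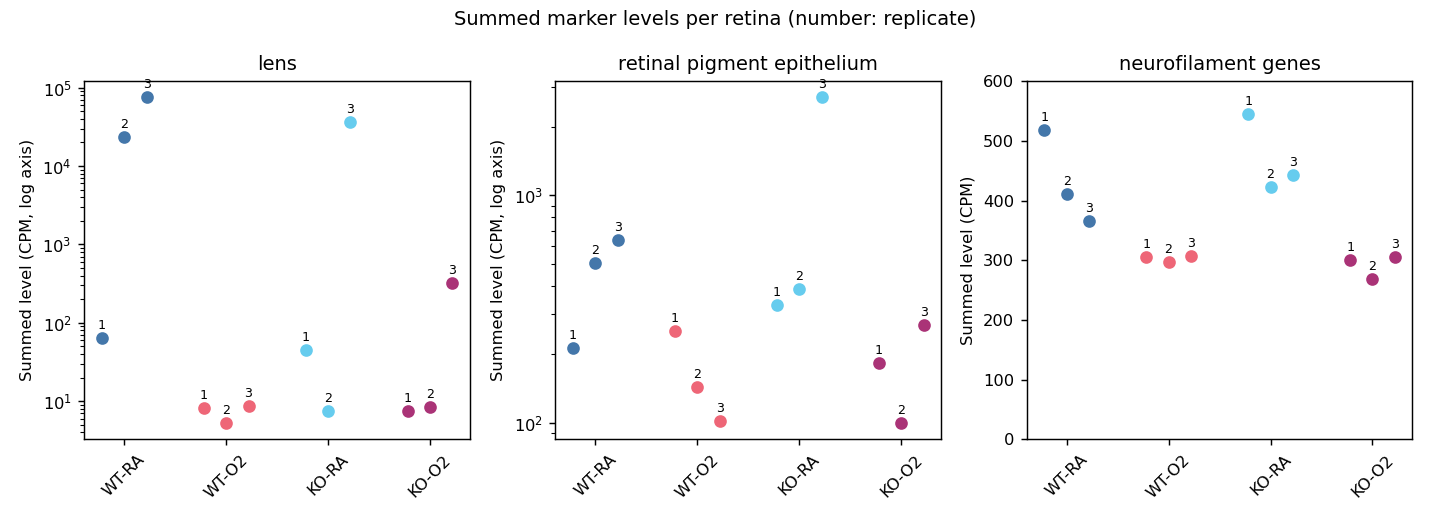
Summed levels of the lens genes, the retinal pigment epithelium genes (both CPM on a log axis) and the 3 neurofilament genes (CPM, linear axis) in each retina, with the replicate number above each point. Lens genes are high in WT-RA 2, WT-RA 3 and KO-RA 3, while the neurofilament sum is 366 to 545 in room air and 269 to 307 in hyperoxia, and WT-RA 1 and KO-RA 1, without high lens levels, have the highest neurofilament sums.

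Per kilobase of annotated exon, the most abundant of the 10 genes in WT-RA was Sncg, at a mean of 305 CPM per kb, followed by Thy1 at 198 and Nefl at 81.7. Isl1 followed at 31.2, Nefh at 19.2, Nefm at 13.6 and Rbpms at 8.39. Pou4f1 stood at 4.72, P2rx2 at 3.86 and Pou4f2 at 1.99. Pou4f1 and Pou4f2 were thus among the least abundant of the 10 per length, while Isl1, which other retinal cells also make, was not. The lengths count all annotated exons of a gene, which overstates the length of genes with many isoforms such as Rbpms.

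Pou4f1 was nearly level across the groups. Its levels were 26.6, 22.6 and 17.0 CPM (WT-RA), 20.8, 25.1 and 19.9 (WT-O2), 29.2, 22.5 and 19.2 (KO-RA) and 21.9, 22.3 and 20.5 (KO-O2). All 4 groups overlapped, and the highest and the lowest libraries were both from room air. The log2 fold change with hyperoxia was -0.01 in wild type (95% interval -0.40 to 0.39) and -0.13 in the knockout (-0.52 to 0.26), so both intervals stopped short of a fall of 1 on the log2 scale. Without the 3 lens-rich retinas the values were -0.28 and -0.26, and neither passed.

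Pou4f2, at fewer reads, behaved alike in its means. Its levels were 6.96, 7.70 and 4.50 CPM (WT-RA), 6.77, 5.58 and 4.83 (WT-O2), 8.28, 5.99 and 6.00 (KO-RA) and 5.59, 6.02 and 4.78 (KO-O2). The groups overlapped in every comparison. The log2 fold change with hyperoxia was -0.16 (-0.65 to 0.34) in wild type and -0.31 (-0.80 to 0.19) in the knockout, and neither passed the test, nor did the values without the lens-rich retinas, -0.29 and -0.38. Pou4f1 stood at 2.94 to 4.49 times the CPM of Pou4f2 within each of the 12 retinas.

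Rbpms was likewise not called. It ranged from 53.8 to 56.7 CPM (WT-RA), 48.9 to 68.2 (WT-O2), 41.8 to 52.5 (KO-RA) and 39.5 to 66 (KO-O2). All 3 KO-RA retinas were below the 3 WT-RA retinas, without a call (-0.22, edgeR adjusted p = 0.65), and the other comparisons overlapped. Of all tested genes, 7.09% likewise had every KO-RA retina below every WT-RA retina. The spread was widest in KO-O2, where replicate 1 was at 39.5 CPM and the other two at 66 and 65.2. Its log2 fold change with hyperoxia was 0.08 (-0.33 to 0.48) in wild type and 0.27 (-0.13 to 0.67) in the knockout. The values without the lens-rich retinas were 0.08 and 0.28. Without KO-O2 replicate 1 the knockout value was 0.48 and passed, with an edgeR adjusted p of 0.079.

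Sncg, a small abundant protein of the ganglion cell body and axon, had 214 to 320 CPM (WT-RA), 164 to 238 (WT-O2), 213 to 251 (KO-RA) and 185 to 213 (KO-O2). The groups overlapped between room air and hyperoxia in wild type, and in the knockout they met at 213 CPM. The log2 fold change was -0.30 (-0.67 to 0.06) in wild type and -0.25 (-0.61 to 0.12) in the knockout, and neither passed the test. Without the lens-rich retinas the wild-type value was -0.61, with WT-RA replicate 1 as the only WT-RA retina, and the knockout value -0.18.

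**Figure D2:**
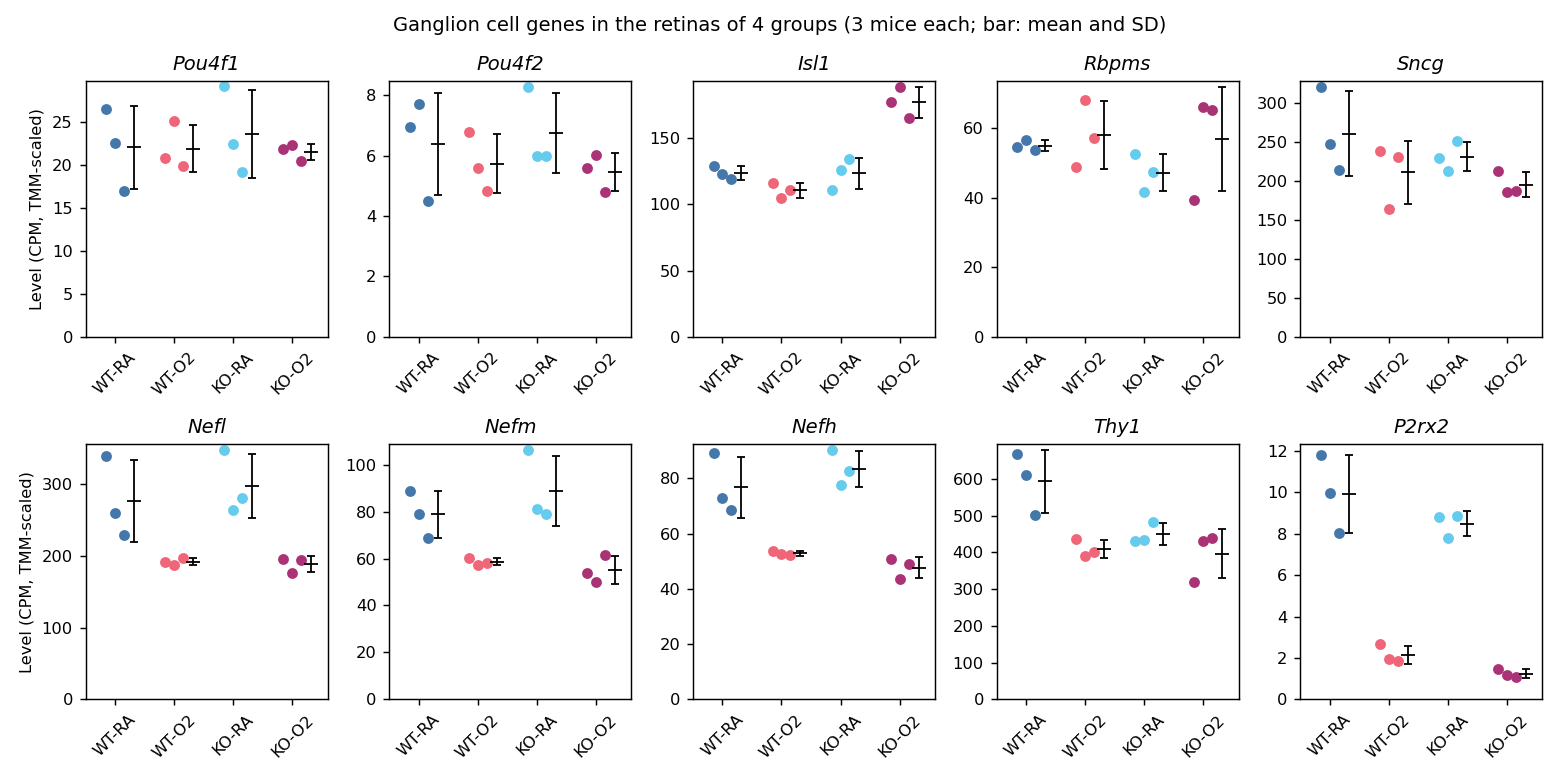
Levels of the 10 genes (CPM, TMM-scaled, linear axes from 0) in each of the 12 retinas by group, with the mean and SD of 3 mice as a bar beside the points. Nefl, Nefm, Nefh and P2rx2 sit lower in both hyperoxia groups, Isl1 sits highest in KO-O2, and Pou4f1, Pou4f2, Rbpms and Sncg overlap between room air and hyperoxia in both genotypes.

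The 3 neurofilament genes did not overlap between room air and hyperoxia in either genotype, and 5 of their 6 differences were called. Of all tested genes, 11.9% in wild type and 12.7% in the knockout likewise had every hyperoxic retina below every room-air retina. Nefl was at 340, 260 and 229 CPM (WT-RA), 192, 187 and 197 (WT-O2), 348, 264 and 281 (KO-RA) and 196, 176 and 195 (KO-O2). Every hyperoxic retina was below every room-air retina. Nefl was 1.44-fold lower in WT-O2 (log2 fold change -0.53 ± 0.14 SE, edgeR adjusted p = 0.084) and 1.58-fold lower in KO-O2 (-0.66 ± 0.14, adjusted p = 0.032).

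Nefh, the heavy subunit, fell in both genotypes. It was at 89.2, 72.8 and 68.4 CPM (WT-RA), 53.9, 52.5 and 52.1 (WT-O2), 90.2, 77.5 and 82.5 (KO-RA) and 50.7, 43.5 and 48.9 (KO-O2). The hyperoxic libraries were again all below the room-air libraries. The log2 fold change was -0.54 ± 0.11 in wild type (edgeR adjusted p = 0.027) and -0.81 ± 0.11 in the knockout (adjusted p = 0.0045).

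Nefm followed the same order. It was at 88.6, 78.8 and 68.9 CPM (WT-RA), 60.3, 57.4 and 58.2 (WT-O2), 106, 81.1 and 79.0 (KO-RA) and 53.8, 49.8 and 61.5 (KO-O2). The groups did not overlap between room air and hyperoxia in either genotype. The knockout difference passed (log2 fold change -0.69 ± 0.13, edgeR adjusted p = 0.019), and the wild-type one did not (-0.43 ± 0.13, adjusted p = 0.12).

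The subunits kept close ratios to each other. Nefl stood at 3.17 to 3.84 times the CPM of Nefm and Nefm at 0.958 to 1.26 times that of Nefh across the 12 retinas. Pou4f1 per 100 CPM of neurofilament was 4.35 to 5.51 in room air and 6.50 to 8.44 in hyperoxia, with no overlap. That ratio was built after the levels were seen and is given as a description.

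The neurofilament values in wild type depended on the libraries kept. Without the 3 lens-rich retinas the log2 fold changes were -0.83 for Nefl, -0.60 for Nefm and -0.76 for Nefh in wild type, where 1 WT-RA retina remained and was assumed to vary like the others, and -0.69, -0.77 and -0.81 in the knockout. In wild type Nefl and Nefh then passed, at edgeR adjusted p of 0.049 and 0.046, and Nefm did not, at 0.12. Without WT-RA replicate 1, the wild-type retina with the highest neurofilament levels, Nefl was at -0.35 with an adjusted p of 0.24. In the knockout, Nefm and Nefh passed with any 1 retina left out, and Nefl did not without KO-RA replicate 1 (adjusted p = 0.11) or without KO-O2 replicate 2 (adjusted p = 0.14).

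Thy1 was lower with hyperoxia in wild-type retinas. It was at 668, 610 and 501 CPM (WT-RA), 437, 390 and 401 (WT-O2), 432, 433 and 484 (KO-RA) and 319, 432 and 440 (KO-O2). The wild-type groups did not overlap and the knockout groups did, while 11.9% of all tested genes had every WT-O2 retina below every WT-RA retina. The log2 fold change was -0.54 ± 0.14 in wild type (edgeR adjusted p = 0.076) and -0.18 ± 0.14 in the knockout (adjusted p = 0.52), and the difference between the 2 responses, 0.36 (-0.08 to 0.80), did not pass (adjusted p = 0.56). The wild-type call was made in 11 of 22 alternative fits and in 6 of 12 with 1 retina left out, and was lost without any 1 of WT-RA replicates 1 and 2, KO-RA replicate 2 and the 3 WT-O2 retinas, at adjusted p up to 0.23. Without the lens-rich retinas the value was -0.71 in wild type, with WT-RA replicate 1 as the only WT-RA retina, and -0.12 in the knockout. KO-RA retinas lay below all WT-RA retinas for Thy1 (-0.40, edgeR adjusted p = 0.30), as they did for 7.09% of all tested genes.

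Isl1 differed from the other markers. It was at 129, 123 and 119 CPM (WT-RA), 116, 105 and 111 (WT-O2), 111, 126 and 134 (KO-RA) and 177, 189 and 165 (KO-O2). All 3 KO-O2 retinas were above the other 9 retinas. Of all tested genes, 13.5% had every KO-O2 retina above every KO-RA retina, and 10% above every WT-O2 retina. Isl1 was 1.43-fold higher in KO-O2 than in KO-RA (log2 fold change 0.51 ± 0.09, edgeR adjusted p = 0.014) and 1.60-fold higher than in WT-O2 (0.68 ± 0.09, adjusted p = 0.021). The wild-type change was -0.16 (-0.35 to 0.04). Without the lens-rich retinas the rise in the knockout was 0.58 (adjusted p = 0.045) and the difference from WT-O2 0.67 (adjusted p = 0.076).

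The interaction for Isl1, the knockout response minus the wild-type response, was 0.67 ± 0.13 (0.40 to 0.95), with an edgeR adjusted p of 0.16. DESeq2 called it, with an adjusted p of 6.8e-05, and so a difference between the responses depends on the tool. In the interaction DESeq2 called 2.88% of the genes it tested, while edgeR called 0.00522% higher and 0% lower. Leaving out WT-RA replicate 2 and KO-O2 replicate 3, for their Gsdmd levels, kept the size of the difference between KO-O2 and WT-O2 (0.73) but not the call (edgeR adjusted p = 0.13). The rise within the knockout passed without them, at 0.56 and an adjusted p of 0.036.

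Isl1 is not particular to ganglion cells, and the bipolar cell genes differed in one of its comparisons more than in the other. The sum of 9 bipolar genes was 1790 to 1940 CPM in KO-O2, 1450 to 1500 (WT-O2), 1600 to 1880 in WT-RA and 1610 to 1790 in KO-RA. In KO-O2 against WT-O2 all 9 had a positive log2 fold change, and 1 passed the test, the ON bipolar channel gene Trpm1 (0.77 ± 0.13, edgeR adjusted p = 0.039). Of all tested genes, 0.569% were called higher there. In KO-O2 against KO-RA 5 of the 9 had a negative log2 fold change, with a median of -0.14. In that comparison 3.44% of all tested genes were called lower and 4.38% higher. There Trpm1 was called higher (0.56, adjusted p = 0.042) and the kainate receptor gene Grik1 lower (-0.50, adjusted p = 0.022). Isl1 per 100 CPM of these genes was 8.48 to 9.92 in KO-O2 and 6.88 to 7.71 in the other 9 retinas. The starburst amacrine list summed to 33.9 to 43.5 CPM in KO-O2 and 33.1 to 37.0 in WT-O2. The part of these cell types in the Isl1 result was not tested.

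**Figure D3:**
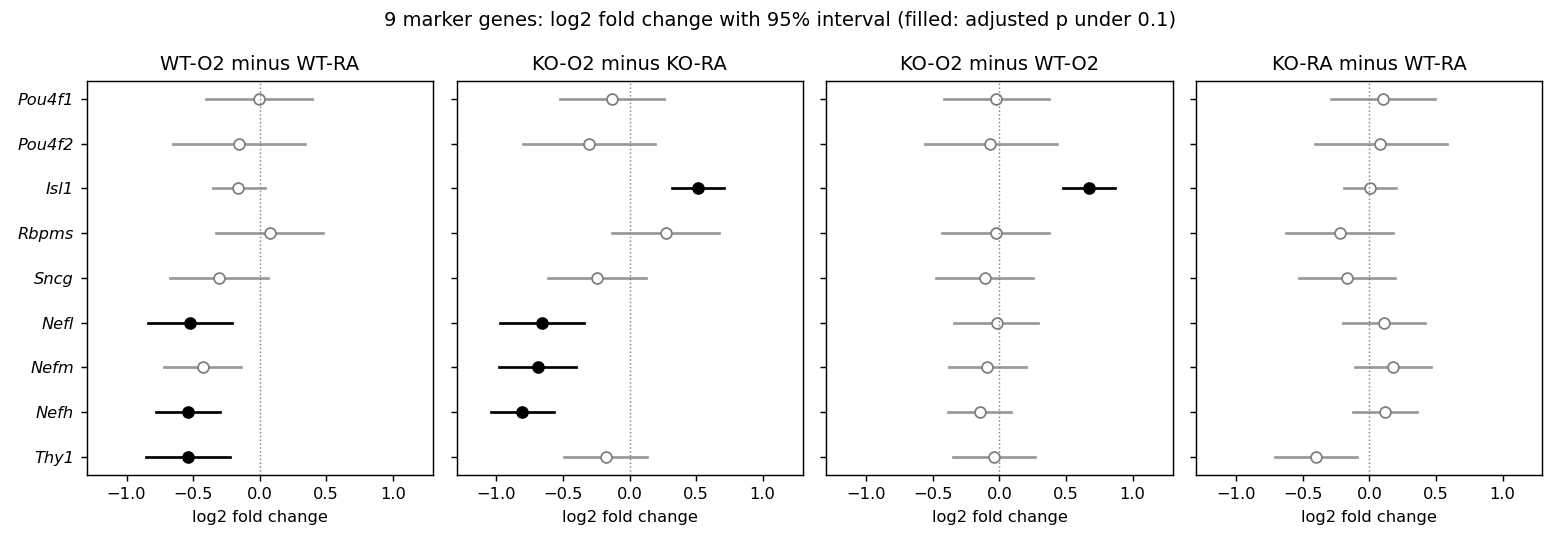
Log2 fold change (x axis) of the 9 markers with 95% intervals in 4 comparisons, with filled points at an adjusted p under 0.1. In the hyperoxia comparisons Nefl and Nefh are filled on the left in both genotypes, and Isl1 is filled on the right in KO-O2 minus KO-RA and in KO-O2 minus WT-O2, where it is the only filled point.

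Counted over the 9 markers, 3 were called lower with hyperoxia in wild type (Nefl, Nefh and Thy1) and 0 higher, against 2.05% lower and 3.11% higher of all tested genes. In the knockout 3 were called lower (Nefl, Nefm and Nefh) and 1 higher (Isl1), against 3.44% and 4.38%. Between genotypes in hyperoxia 0 were lower and 1 higher (Isl1), against 0.704% and 0.569%. In room air the genotypes had 0 called either way, against 0.00522% lower and 0% higher, and the interaction had 0 called, against 0% lower and 0.00522% higher. At an unadjusted p under 0.05, edgeR had 1 of the 9 in room air (Thy1) and 1 in the interaction (Isl1), and DESeq2 called each of these. DESeq2 called 5.24% of the genes it tested in room air and 2.88% in the interaction.

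None of the 9 reached a fold of 2. The backgrounds with that threshold were 0.266% lower and 1.77% higher in wild type, 0.553% and 1.64% in the knockout, 0.209% and 0.0835% between genotypes in hyperoxia, and 0.00522% and 0% in room air. The median log2 fold change of the 9 was -0.30 with hyperoxia in wild type, -0.25 in the knockout, -0.04 between genotypes in hyperoxia and 0.08 in room air, and the medians of all genes lay within 0.01 of 0. Both hyperoxia comparisons have their own controls, while each shares its hyperoxic or room-air retinas with a genotype comparison.

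P2rx2 was listed for its fall in the knockout and is given as values. It was at 11.8, 9.95 and 8.05 CPM (WT-RA), 2.66, 1.96 and 1.87 (WT-O2), 8.82, 7.80 and 8.86 (KO-RA) and 1.49, 1.16 and 1.09 (KO-O2). The hyperoxic retinas lay below all room-air retinas, and the 3 KO-O2 retinas lay below the 3 WT-O2 retinas. Of all tested genes, 11.9% in wild type and 12.7% in the knockout had every hyperoxic retina below room air. For 9.86% every KO-O2 retina was below every WT-O2 retina. The group means were 9.95 ± 1.89 (SD, n = 3), 2.16 ± 0.43, 8.49 ± 0.60 and 1.25 ± 0.22 CPM in the same order.

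As log2 fold changes, P2rx2 was at -2.20 with hyperoxia in wild type and -2.76 in the knockout, which are 4.60-fold and 6.79-fold lower. Between KO-O2 and WT-O2 it was at -0.79, and between the room-air groups, which overlapped, at -0.23. The low levels rest on 32 to 43 counts per library in KO-O2 and 55 to 69 in WT-O2. Over all alternatives the value was -2.46 to -1.97 in wild type and -2.91 to -2.67 in the knockout. These values were used to pick the gene and support nothing by themselves.

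P2rx2 fell further than the neurofilaments in the same libraries. P2rx2 per 100 CPM of the 3 neurofilament genes was 2.20 to 2.42 (WT-RA), 0.610 to 0.867 (WT-O2), 1.62 to 2.00 (KO-RA) and 0.356 to 0.496 (KO-O2). The 4 ranges did not overlap. Since P2rx2 was picked for its fall, low ratios in hyperoxia are partly set by that choice, and the ratio is given as a description.

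**Figure D4:**
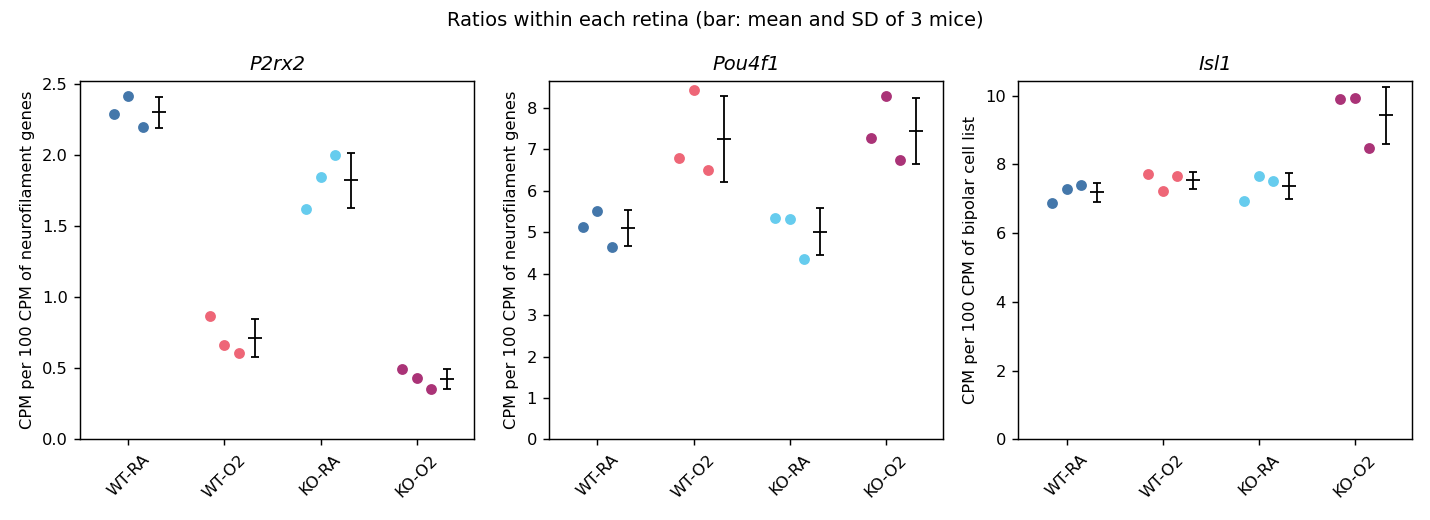
Ratios within each retina: P2rx2 and Pou4f1 per 100 CPM of the 3 neurofilament genes, and Isl1 per 100 CPM of the 9 bipolar genes, with the mean and SD of 3 mice as a bar. P2rx2 per neurofilament is lower in hyperoxia, Pou4f1 per neurofilament is higher in hyperoxia, and Isl1 per bipolar gene is highest in KO-O2 at 8.48 to 9.92.

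The other ATP-gated channel genes did not show a fall of that size. P2rx4 was at a mean of 16.7 CPM (WT-RA), 20.4 (WT-O2), 17.2 (KO-RA) and 16.9 (KO-O2). P2rx3 was at 2.93, 3.83, 2.92 and 2.52, P2rx5 at 1.49, 1.03, 1.41 and 1.22, and P2rx6 at 2.42, 1.87, 1.99 and 1.61. P2rx7, at 1.52, 3.05, 0.803 and 2.83, was higher in the hyperoxia groups by its means. None of these 5 passed the test in any comparison, and P2rx1 was too low to test.

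Of 21 tested genes for purinergic receptors and ATP handling, 1 was called lower and 2 higher in wild type, and 3 lower and 1 higher in the knockout, or 4.76% and 9.52%, and 14.3% and 4.76%, against 2.05% lower and 3.11% higher, and 3.44% and 4.38%, of all tested genes. The 1 of 21 counts are thus near the share over all genes. Entpd3, an ectonucleotidase that breaks down extracellular ATP, fell in both genotypes (log2 fold change -0.80 in wild type, edgeR adjusted p = 0.028, and -1.05 in the knockout, adjusted p = 0.0082). In wild type the adenosine receptor gene Adora2a rose by 1.92 (adjusted p = 0.019) and P2ry6, which microglia also make, rose by 1.47 (adjusted p = 0.088), the latter called in 8 of 22 alternative fits and in 3 of 12 with 1 retina left out, at adjusted p up to 0.39. In the knockout the vesicular nucleotide transporter gene Slc17a9 rose by 1.07 (adjusted p = 0.065), while P2ry1 (-0.71) and the ectonucleotidase gene Nt5e (-0.36) fell, each called in 14 of 22 alternative fits. Without the lens-rich retinas, with WT-RA replicate 1 as the only WT-RA retina, Entpd3, Adora2a and P2ry6 were not called in wild type. Nor were Slc17a9 (edgeR adjusted p = 0.21), P2ry1 (0.16) and Nt5e (0.11) in the knockout. The summed level of 7 microglia genes was 48.6 to 70.8 CPM in WT-O2 and 25.5 to 39.3 in WT-RA, and their part in P2ry6 was not tested.

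Some other ganglion cell genes were called lower as well. Of 15 tested, 3 were called lower in wild type and 5 in the knockout, with 0 higher in either. That is 20% and 33.3% lower, against 2.05% and 3.44% of all tested genes, of which 3.11% and 4.38% were called higher. Chrna6 and Chrnb3, nicotinic receptor subunits that ganglion cells make, fell in both genotypes. Chrna6 fell from a mean of 67.3 to 42.1 CPM in wild type (log2 fold change -0.68, edgeR adjusted p = 0.036) and from 74.6 to 43.9 in the knockout (-0.77, adjusted p = 0.019). Chrnb3 fell from 35.9 to 22.9 (-0.65, edgeR adjusted p = 0.038) and from 37.0 to 20.8 (-0.83, adjusted p = 0.012). In wild type Chrna6 was called in 18 and Chrnb3 in 15 of 22 alternative fits. With 1 retina left out the wild-type Chrnb3 call was made in 8 of 12. Both knockout calls were made in all 22. L1cam, an axonal adhesion molecule, fell in wild type (-0.53, edgeR adjusted p = 0.063), a call made in 13 of 22 alternative fits. It was not called without the lens-rich retinas, with WT-RA replicate 1 as the only WT-RA retina.

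In the knockout, Slc17a6, the vesicular glutamate transporter of ganglion cells, fell from 33.0 to 21.1 CPM (log2 fold change -0.64, edgeR adjusted p = 0.042). Nrn1, a neurite growth gene, fell from 71.2 to 38.9 (-0.87, adjusted p = 0.033). Pou4f3, the third Brn3 factor, fell from 6.66 to 3.03 (-1.14, adjusted p = 0.023) and was the one gene of this list past a fold of 2, while Pou4f1 and Pou4f2 were not called. In wild type Pou4f3 was at 5.43 and 4.47 CPM, and was not called. In the interaction 0 of the 15 were called, against 0% lower and 0.00522% higher of all tested genes. With so few calls in all, it cannot tell whether these responses differ between the genotypes.

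Genes of ganglion cell subtypes gave few calls. Of 13 tested, Cartpt, a peptide gene of direction-selective ganglion cells, fell in both genotypes. It went from 189 to 109 CPM in wild type (log2 fold change -0.79, edgeR adjusted p = 0.042) and from 197 to 114 in the knockout (-0.79, adjusted p = 0.035). The wild-type call was made in 16 of 22 alternative fits and in 8 of 12 with 1 retina left out. The knockout call was made in 20 of 22. Penk, an opioid peptide gene that amacrine cells also make, rose in the knockout (0.84, adjusted p = 0.084), a call made in 12 of 22 alternative fits and in 4 of 12 with 1 retina left out, at adjusted p up to 0.23. Of 11 tested fate regulators, Pou4f3 alone was called, in the knockout. This list shares Pou4f3, Isl2, Ebf1 and Ebf3 with the other ganglion cell genes, Eomes with the subtype genes and Sox11 with the neuron injury genes. A count of 1 is 7.69% of 13 genes and 9.09% of 11. Of all tested genes, 2.05% were lower and 3.11% higher in wild type, and 3.44% and 4.38% in the knockout. Counts of 1 in lists this short are not read as a result.

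Axon cytoskeleton and transport genes gave few calls, and Prph, Stmn2, Ina, Gap43 and Tubb3 of this list are also among the other ganglion cell genes. Of 12 tested, 0 were called in wild type and 2 in the knockout, the kinesin gene Kif5a (79.2 to 56.4 CPM, log2 fold change -0.49) and the cytoskeletal linker gene Dst (75.3 to 52.4 CPM, -0.52), each with an edgeR adjusted p of 0.045. The 2 calls are 16.7% of the list, against 3.44% of all tested genes called lower in the knockout and 2.05% in wild type. The list's median log2 fold change was -0.25 in wild type and -0.28 in the knockout, so the medians were near each other while the calls differed. In the interaction 0 of the 12 were called, against 0% lower and 0.00522% higher of all tested genes.

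A few neuron injury genes were called higher. Of 16 tested, 3 were called higher in each genotype and 0 lower, and 3 had negative log2 fold changes in wild type and 6 in the knockout. The 3 calls are 18.8% of the list, against 3.11% of all tested genes called higher in wild type and 4.38% in the knockout. Lower calls were 2.05% and 3.44% of all tested genes. Atf3, a stress-induced transcription factor, rose in wild type from 3.31 to 10.0 CPM (log2 fold change 1.59, edgeR adjusted p = 0.0069), and Trib3, a stress pseudokinase, rose by 0.87 (adjusted p = 0.059). In the knockout Bbc3, the proapoptotic factor Puma, rose by 1.09 (adjusted p = 0.023) and Gadd45a, a growth arrest gene, by 0.74 (adjusted p = 0.015). Sprr1a, listed here for regenerating neurons, was at 0 counts in the 6 room-air retinas, which allows up to 0.104 to 0.111 CPM per library by counting error. It was at 0.187 to 1.42 CPM in the 6 hyperoxic retinas, and was called in both genotypes. Its call was made in 8 of 21 alternative fits in wild type, in 2 of 12 with 1 retina left out, at adjusted p up to 0.40, and in 13 of 21 in the knockout. The ciliary and cornea epithelium list summed to 3.45 to 9.33 CPM in KO-O2 and 1.32 to 2.93 in KO-RA. In wild type it was at 1.68 to 2.38 in WT-O2 and 1.56 to 2.78 in WT-RA. The part of such cells in Sprr1a was not tested. Without the lens-rich retinas, with WT-RA replicate 1 as the only WT-RA retina, Trib3 and Sprr1a were not called in wild type. Nor were Bbc3 and Sprr1a in the knockout, both at an edgeR adjusted p of 0.11. Atf3 was lower in KO-O2 than in WT-O2 (-1.06, adjusted p = 0.091), a call made in 5 of 22 alternative fits and not without the lens-rich retinas (adjusted p = 0.15). Neurotrophic factor and receptor genes had 0 of 12 tested genes called in the hyperoxia comparisons, where 6 of 12 and 7 of 12 had negative log2 fold changes.

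Some genes of other retinal cells also differed with hyperoxia. Of all tested genes, 2.05% were called lower and 3.11% higher in wild type, and 3.44% and 4.38% in the knockout. Counts of 0 or 1 in the short lists below are not read as a result. Of the 9 amacrine genes all had negative log2 fold changes in wild type and 2 were called lower, and of the 9 bipolar genes 4 were called lower there. In the knockout 1 amacrine gene was called lower, and among the bipolar genes 1 was called lower and 1 higher. Of 5 horizontal cell genes 2 were called lower in wild type and 0 in the knockout. Of 9 genes of Mueller glia 4 were lower and 1 higher in wild type, and 3 lower and 1 higher in the knockout. Of 8 cone genes 1 was lower in wild type alone, and of 5 starburst amacrine genes 0 were called in either genotype. Of 8 rod genes 0 were called in either genotype at the adjusted p of 0.1. The rod list summed to 65000 to 74200 CPM (WT-RA), 58300 to 66600 (WT-O2), 59400 to 66300 (KO-RA) and 50500 to 57000 (KO-O2). The sum of the 9 ganglion cell markers was 1270 to 1720, 1050 to 1170, 1270 to 1410 and 1080 to 1190 CPM in the same order. Endothelial genes went the other way, at 85.7 to 103 CPM (WT-RA), 165 to 189 (WT-O2), 103 to 114 (KO-RA) and 138 to 153 (KO-O2). The part of such shifts in the levels of the ganglion cell genes was not tested.

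Across the 12 retinas the neurofilament genes varied together, with Pearson's r of log2 CPM of 0.97 for Nefl with Nefm, 0.97 for Nefl with Nefh and 0.96 for Nefm with Nefh. Within groups, after subtracting group means, r was 0.87, 0.95 and 0.79. Pou4f1 and Pou4f2 had r = 0.73 over the 12 retinas and 0.74 within groups. Rbpms had r of -0.40 to 0.22 with the other 9 genes and Isl1 of -0.50 to -0.05. These values share libraries and scaling, and are a description.

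The genes most like P2rx2 over the 12 retinas, among 11939 genes of at least 5 CPM, were Cck (r = 0.97), Coch (0.96), Emb (0.96), Nefh (0.96) and Gm28438 (0.95). Since P2rx2 was picked for its fall, that choice favours genes with a like gap between room air and hyperoxia. The list is a description. Cck, the cholecystokinin peptide gene, was at a mean of 51.5 CPM (WT-RA), 18.3 (WT-O2), 40.6 (KO-RA) and 10.3 in KO-O2, and its r with P2rx2 within groups was 0.77. Within groups, r with P2rx2 was 0.498 for Coch, 0.691 for Nefh and 0.538 for Gm28438. For Emb the r within groups was -0.67, so its likeness lay between the groups alone. Gm28438 ran from 4210 CPM in KO-RA to 0.0452 in KO-O2 by group means and is uncertain. The genes most like the mean of the 9 markers were Lynx1 (r = 0.96), Lrrc24 (0.95), Golga7b (0.95), Ndn (0.95) and Sult4a1 (0.945), and their r within groups was 0.89 to 0.95. Lynx1, which binds nicotinic receptors, was at 131, 89.1, 130 and 89.3 CPM.

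In the lung, where pups breathed 85% oxygen from postnatal day 1 to 14, the same genes were examined as a tissue without ganglion cells. These lungs were not used to choose P2rx2. Pou4f2, Nefl, Nefm and Isl1 were too low to test, with at most 9 counts in any lung library. P2rx2 rose with hyperoxia, from 1.64, 1.92 and 1.62 CPM in WT-RA to 4.57, 5.57 and 5.24 in WT-O2 (log2 fold change 1.57 ± 0.21, edgeR adjusted p = 3.6e-05) and from 1.64, 1.17 and 1.73 in KO-RA to 2.59, 3.97 and 3.28 in KO-O2 (1.11 ± 0.21, adjusted p = 0.00088). The direction was opposite to that in the retina. The lungs were collected the day after the exposure, at a younger age and without the days in room air of the retina model. Oxygen level and length of exposure differed as well, so the tissue cannot be told apart from these differences.

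Sncg rose in the lung as well, from 0.706 to 1.31 CPM in WT-RA to 4.34 to 5.97 in WT-O2 (log2 fold change 2.42 ± 0.25, edgeR adjusted p = 3.9e-06), and by 1.90 ± 0.26 in the knockout (adjusted p = 4.5e-05). Rbpms, which many lung cells make, was lower in both genotypes (-0.32, adjusted p = 0.011, and -0.40, adjusted p = 0.0027). Thy1 was lower in the knockout (-0.22, adjusted p = 0.073), and Nefh and Pou4f1, both under 1 CPM in every lung, were not called. Of the 6 tested genes, 1 was called lower and 2 higher in wild type and 2 lower and 2 higher in the knockout. The lung background was high, at 24.7% lower and 24.5% higher in wild type and 23.4% and 23.3% in the knockout.

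**Figure D5:**
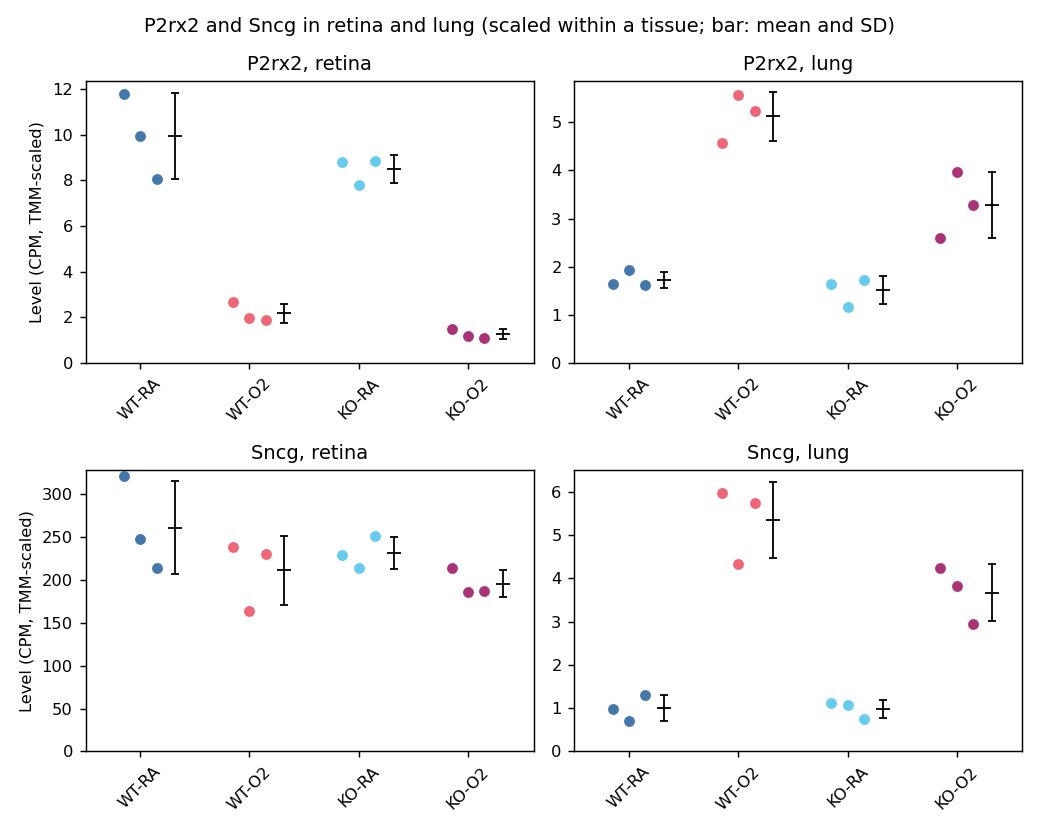
Levels of P2rx2 (top) and Sncg (bottom) in the 12 retinas (left) and the 12 lungs (right), in CPM scaled within a tissue on linear axes from 0, with the mean and SD of 3 mice as a bar. P2rx2 is lower in hyperoxic retinas (1.09 to 2.66 CPM) and higher in hyperoxic lungs (2.59 to 5.57 CPM), and Sncg is higher in hyperoxic lungs alone.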

How the data were processed

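Retinas and lungs of 12 mice each were analysed in 4 groups of 3 per tissue, as the labels give genotype and exposure. The authors ran kallisto on paired-end reads, totalled transcripts by gene through tximport, and deposited expected counts (estimated counts) without scaling to depth. Of nonzero values, 55.8% in the lung table and 2.2% in the retina table lay within 0.01 of a whole number. The reason was not tested, and counts and levels per kilobase rest on the values as deposited. The labels name mm10 and the methods GRCm39. GENCODE M21 on GRCm38 gave the symbols. Counts were rounded and fitted in edgeR 4.0.16 (R 4.3.3), with TMM scaling, filterByExpr by group and glmQLFit with robust=TRUE, and 12 samples of a tissue per model. Standard errors are the size of the log2 fold change divided by the root of the F statistic. The 5 contrasts were hyperoxia in each genotype, genotype in each exposure, and their interaction. The lung fit was added after the retina had been seen. DESeq2 1.42.0, RLE, library totals, no filter, a lens covariate, pairwise fits, robust=FALSE and leaving out retinas were the alternatives. The fit was tested on simulated data. The members and gene lists were chosen with earlier results of these data known. The text names all 10 members, up to 4 called genes per list and comparison by smallest p, and the 5 genes most like P2rx2 and the 9 markers; other genes were named after their values were seen. P-values rest on the spread between mice within groups, pooled over the 4 groups of a tissue and moderated across genes. They do not measure the spread of the 3 mice of 1 group alone. The authors' own tests were not used.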

Additional observations from a re-analysis of the deposited data

How the results depend on the processing

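Nefm and Nefh in the knockout kept their direction and their call in all 22 alternative fits, as did the rise of Isl1 in the knockout, while with 3 mice per group the wild-type calls depended on the setting. Of the 9 markers, 3 were called with hyperoxia in wild type, against 0 with library totals alone, 1 with library totals without lens and Cry genes, 1 with a lens covariate, 1 in a fit of the 6 retinas alone, 1 without WT-RA replicate 2 and KO-O2 replicate 3 (left out for their Gsdmd levels), and 0 to 4 with 1 retina left out, where 0 were called without WT-O2 replicate 2. Thy1 and Nefl kept their wild-type call in 11 and 7 of the 22. The call of Isl1 between genotypes in hyperoxia was lost, with 0 called, without both Gsdmd libraries. Between genotypes in room air DESeq2 called 1 (Thy1), and in the interaction it called 1 (Isl1), with 0 to 1 when 1 retina was left out (Isl1, without KO-O2 replicate 1). The cause of these changes was not tested. DESeq2 also called more genes in all, 10.2% and 14% of those it tested with hyperoxia in wild type and in the knockout. Its share was 5.67% between genotypes in hyperoxia, 5.24% in room air and 2.88% in the interaction.

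Over the 7 further gene lists, 10 genes were called in wild type, against 18 by DESeq2, 2 with the lens covariate, 6 in the fit of 6 retinas, 2 without both Gsdmd libraries and 3 to 14 with 1 retina left out. In the knockout 16 were called, with 5 to 19 when 1 retina was left out (6 without KO-RA replicate 1 and 5 without KO-O2 replicate 2). The fits in brackets called 2.79% and 1.87% of all genes there. Between genotypes in hyperoxia 1 was called, against 3 by DESeq2, 0 with library totals, with or without lens genes, without the filter, with the lens covariate, in the fit of 6 retinas, without the lens-rich libraries and without the Gsdmd libraries, and 0 to 1 with 1 retina left out. In room air DESeq2 called 1 and library totals 1, and in the interaction DESeq2 called 2, against 0. The share of all genes called also differed by setting. In wild type it was 10.2% by DESeq2, 1.24% with the lens covariate and 3.55% in the fit of 6 retinas. Without the Gsdmd libraries it was 1.55%. DESeq2 called 5.67% between genotypes in hyperoxia, 5.24% in room air and 2.88% in the interaction. Library totals called 2.53% in room air. These counts are not read as a result about the lists.

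Values that changed sign all belonged to genes that passed the test in neither fit. With hyperoxia in wild type, library totals gave log2 fold changes of 0.23 for Pou4f1, 0.0688 for Pou4f2 and 0.0742 for Isl1, totals without lens and Cry genes gave 0.15 for Pou4f1, the fit of 6 retinas 0.0055 and the fit without the Gsdmd libraries 0.0092. Between genotypes in hyperoxia the lens covariate gave 0.0432 for Pou4f1 and 0.0165 for Nefl, and the fit without the Gsdmd libraries gave 0.011 for Pou4f1 and 0.0195 for Pou4f2. In room air Isl1 was at -0.0144 with DESeq2, -0.0119 with RLE, -0.001 without the filter, -0.0082 in the fit of 6 retinas, -0.0018 without the Gsdmd libraries and -0.13 without the lens-rich libraries. There the lens covariate gave -0.0649 for Pou4f1 and -0.0284 for Pou4f2, and the fit without the lens-rich libraries -0.0504 for Pou4f1, -0.16 for Nefl and -0.10 for Nefh. In the interaction library totals gave -0.11 for Sncg, and -0.0764 without lens and Cry genes, the lens covariate 0.11 for Pou4f1 and 0.0017 for Pou4f2, and the fit without the lens-rich libraries 0.0239 for Pou4f1 and 0.14 for Nefl. P2rx2, without a test, moved by more than its spread between replicates without the lens-rich libraries, to -2.46 with hyperoxia in wild type, -0.52 in room air and -0.27 in the interaction.
With 1 retina left out, sign changes lay within these ranges. With hyperoxia in wild type -0.1655 to 0.1459 for Pou4f1 and -0.0545 to 0.1864 for Rbpms. With hyperoxia in the knockout -0.2597 to 0.0485 for Pou4f1. Between genotypes in hyperoxia -0.1936 to 0.0688 for Pou4f2, -0.1236 to 0.0933 for Thy1, -0.1494 to 0.1765 for Rbpms, -0.1074 to 0.0834 for Pou4f1 and -0.0488 to 0.0278 for Nefl. Between genotypes in room air -0.2937 to 0.005 for Sncg, -0.0575 to 0.0743 for Isl1, -0.0817 to 0.2536 for Pou4f1, -0.1178 to 0.2371 for Pou4f2 and -0.0202 to 0.2856 for Nefl. In the interaction -0.1156 to 0.183 for Sncg, -0.2774 to 0.0579 for Pou4f1 and -0.3042 to 0.0504 for Pou4f2.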
